A study of Mus musculus with 15 samples.

Results

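Collagens and laminins are the secreted proteins that form most of the solid matrix around animal cells, and the 55 mouse genes that encode their chains were followed through the induction of primordial germ cell-like cells (PGCLCs) in culture. The 55 were all protein-coding genes of the GENCODE M21 annotation with a collagen chain symbol (44 genes) or a laminin alpha, beta or gamma chain symbol (11 genes), out of 55536 genes in the deposited table of RNA-seq counts. They were sorted by protein class into 19 basement membrane genes (collagen IV, collagens XV and XVIII, and all laminins), 11 fibrillar collagens, 6 collagen VI genes of beaded filaments, 9 fibril-associated collagens, 3 network-forming collagens, 4 transmembrane collagens and 3 others.

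Laminins are cross-shaped trimers of 1 alpha, 1 beta and 1 gamma chain that polymerise at the cell surface and start a basement membrane, onto which a network of collagen IV and the linker proteins nidogen, perlecan and agrin is laid. The pluripotent epiblast of the mouse embryo rests on such a sheet, which visceral endoderm helps to make. Fibrillar collagens are the rope-like proteins of connective tissue, made chiefly by mesenchymal cells, and collagen VI, the fibril-associated and the transmembrane collagens connect fibres and cells to each other.

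All 15 samples came from a mouse embryonic stem cell (ESC) line that carried a Stella-eGFP reporter, which marks cells that express the germ cell gene Stella, together with doxycycline (Dox)-inducible Prdm1, Prdm14, Tfap2c and Nanog transgenes. The 5 groups of 3 samples were naive ESCs in 2i with LIF (1 µM PD0325901, 3 µM CHIR99021 and 1000 U/ml LIF) on poly-L-ornithine and laminin at 10 ng/ml, epiblast-like cells (EpiLCs) after 48 h in 20 ng/ml Activin A and 12 ng/ml bFGF on fibronectin at 16.7 µg/ml, and Stella-eGFP+ PGCLCs from aggregates in U-bottom wells after 2, 4 or 6 days with 2 µg/ml Dox. The coating, the medium, the aggregate form and the sort changed together with the stage, so their parts in any difference below cannot be told apart from the stage. The transgenes were carried by every group and induced only in PGCLCs, and nothing in the labels says that samples of a group came from separate cultures, so p-values measure only the spread between these samples, which may be technical. In bulk RNA, fewer cells that make a transcript and less transcript per cell cannot be told apart.

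Between 22555021 and 42725681 reads per sample were counted over genes, and the members' share of them lay between 0.0917% and 0.0998% for ESCs, between 0.157% and 0.164% for EpiLCs and between 0.120% and 0.151% for PGCLCs. Levels are given as CPM, counts scaled to a common library size after TMM normalisation. Day 6 replicate 1 stood apart with 18061 genes that had a count, against 21103 to 24343 in the other samples, and 9 members had no count in it against 3 and 1 in the other day 6 samples. The labelled cell types were checked against their markers, with a summed level of 2174 to 2248 CPM for the 6 naive markers in ESCs against 236 to 1245 elsewhere, of 1824 to 1966 CPM for the 4 EpiLC markers in EpiLCs and at most 142 in any other sample, and of 820.1 to 1023 CPM for the 6 PGCLC markers in PGCLCs against 122 to 234 in ESCs and EpiLCs. Of those 6, Dppa3 encodes the Stella protein used for the sort, and Prdm1 and Tfap2c are also transgenes. Prdm1 averaged 59.6 CPM on day 6, below its 71.6 CPM in EpiLCs. Of the naive markers, 4 had their highest mean in ESCs and 2, Esrrb and Nr5a2, on day 2. Esrrb averaged 590 CPM in ESCs and 620 on day 2, and Nr5a2 116 and 118.

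Promoter sequences are shown for 4 genes, Col18a1 and Lama5, which had high levels in this class, and Lamb1 and Lamb2, which moved in opposite directions between ESCs and EpiLCs, so that the letters ahead of their start sites can be compared. They are stretches of the 250 bases before the RefSeq start site (GRCm38.p6), cut so that no annotated exon is included, written 5′ to 3′ on the gene's strand, with capitals at matches on either strand to the GC box GGGCGG, the CCAAT box, the TATA box TATAAA or the AP-2 motif GCCNNNGGC. Matches of different motifs may overlap.
Col18a1, chr10:77166549-77166780, minus strand: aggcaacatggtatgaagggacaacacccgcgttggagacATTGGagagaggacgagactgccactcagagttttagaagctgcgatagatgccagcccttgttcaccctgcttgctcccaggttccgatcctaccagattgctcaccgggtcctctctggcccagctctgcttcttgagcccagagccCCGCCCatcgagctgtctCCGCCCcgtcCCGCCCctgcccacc
Lamb1, chr12:31265043-31265233, plus strand: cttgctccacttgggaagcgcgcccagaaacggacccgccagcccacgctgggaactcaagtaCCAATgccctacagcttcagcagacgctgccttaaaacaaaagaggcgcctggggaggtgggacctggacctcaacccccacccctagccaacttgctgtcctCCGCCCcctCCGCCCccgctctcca
Lamb2, chr9:108479612-108479735, plus strand: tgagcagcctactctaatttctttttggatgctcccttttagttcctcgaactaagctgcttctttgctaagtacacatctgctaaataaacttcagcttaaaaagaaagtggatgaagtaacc
Lama5, chr2:180225860-180226109, minus strand: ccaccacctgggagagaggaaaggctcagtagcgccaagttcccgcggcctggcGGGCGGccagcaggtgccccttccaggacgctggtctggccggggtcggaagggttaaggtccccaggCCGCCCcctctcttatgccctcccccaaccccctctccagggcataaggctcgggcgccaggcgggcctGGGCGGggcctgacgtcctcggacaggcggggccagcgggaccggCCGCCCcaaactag
The Col18a1 stretch held 3 GC boxes and 1 CCAAT box, and the Lamb1 stretch 2 GC boxes and 1 CCAAT box. The Lama5 stretch, the only one that reached its start site, held 4 GC boxes. The 124 bases shown for Lamb2 held no match to any of these letters. They end at 108479735, short of the RefSeq start site at 108479862, so the bases nearest that start were left out. The stretches thus cover unlike parts of the 250 bases. RefSeq promoter windows of 300 bases, from 250 before to 50 after the start, were found for 40 of the 55 members (44 windows). A GC box stood in 26 of the 44 windows (59.1%) and in 35.7% of the 32851 windows of all genes. The CCAAT box was in 31.8% of member windows against 37.4% of all, TATAAA in 11.4% against 13.6% and the AP-2 motif in 20.5% against 16.6%. The letters GGTCTCTAA, searched for PRDM14, were in 0 of 44 member windows and in 0.256% of all windows. These matches describe letters in the windows and do not show binding.

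Most of the members were weakly expressed, and a few basement membrane genes made up nearly all of the signal. The 19 basement membrane genes took 93.5% of the summed CPM of all members in ESCs, 92.4% in EpiLCs, 93.4% on day 2, 91.3% on day 4 and 86.1% on day 6. The 11 fibrillar genes took 4.35%, 2.97%, 1.04%, 1.60% and 2.80% in the same order. Collagen XVIII alpha 1 (Col18a1) and laminin gamma 1 (Lamc1) held the first and second rank of CPM per kb of exon among the 55 members in every sample.

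A member was taken as below detection in a group where none of its 3 samples had more than 3 counts. By that measure 15 of 55 members were below detection in ESCs, 6 in EpiLCs, 8 on day 2, 5 on day 4 and 5 on day 6, with 8 on day 4 without day 4 replicate 3. Among basement membrane genes the numbers were 5, 3, 3, 2 and 2 of 19, and among fibrillar genes 2, 0, 2, 0 and 1 of 11. Only Col4a3, Col10a1 and Col19a1 stayed at or below 3 counts in all 15 samples. Col4a3, Col4a4 and Col4a6, chains of the specialised collagen IV networks of kidney and smooth muscle, never exceeded 6 counts. The main chains of bone and skin collagen were also scarce, with at most 113 counts for Col1a1, 50 for Col1a2 and 35 for Col3a1 in any sample. In all, 47 members passed the filter on low counts and were tested (15 of 19 basement membrane and 10 of 11 fibrillar), and the 8 removed by it were Col4a3, Col4a4, Col4a6, Col10a1, Col12a1, Col19a1, Col24a1 and Lamc3, with at most 16 counts in any sample. With a floor of 0 counts in place of 3, the numbers below detection were 7 in ESCs, 4 on day 2, 1 on day 4 and 0 on day 6, and with a floor of 10 they were 13 in EpiLCs, 13 on day 2 and 11 on day 4.

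**Figure D1:**
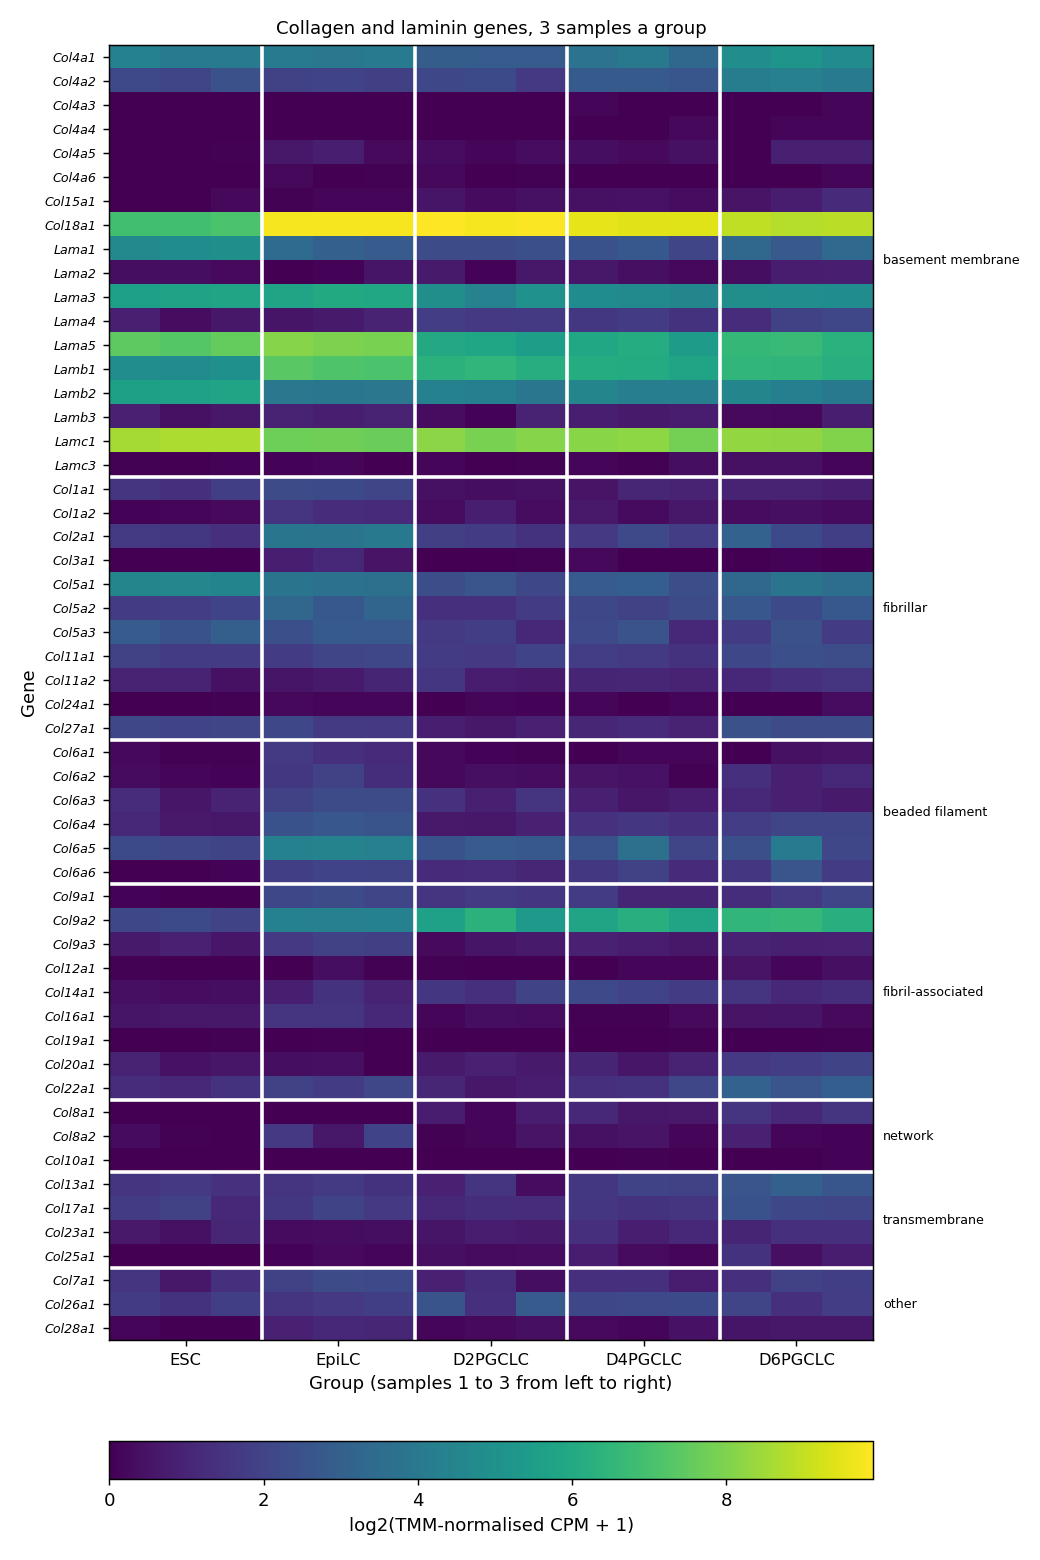
Heat map of log2(CPM + 1) for the members described (rows, grouped by class) in the 15 samples (columns, 3 per group). By highest group mean, Col18a1, Lamc1, Lama5 and Lamb1 are the brightest rows, although Lama3 and Lamb2 are brighter than Lamb1 in ESCs. Most collagens outside the basement membrane class stay dark in every group, with Col9a2 an exception in EpiLCs and PGCLCs.

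The first comparison asked which members differed between naive ESCs and EpiLCs, the transition that precedes germ cell induction. Of the 47 members tested with edgeR, 22 were called higher in EpiLCs and 5 lower, where a call needed an adjusted p below 0.05 with a change beyond 1 on the log2 scale. This compares with 14.4% higher and 11.9% lower among all 18090 genes tested. The median log2 fold change of the members was 0.87 and that of all genes -0.01. The classes moved apart, since all 6 collagen VI genes, 5 of 7 fibril-associated and 4 of 10 fibrillar genes were higher, whereas 3 of 15 basement membrane genes were higher and 3 lower. The number lower was 3 without ESC replicate 3, EpiLC replicate 1 or EpiLC replicate 3, with Col20a1 and Col23a1 lost each time.

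The second comparison, of Stella-eGFP+ day 2 PGCLCs with the EpiLCs they came from, ran largely the other way. On day 2, 23 members were lower and 5 higher, against 14.4% lower and 11.0% higher among all genes, with a median log2 fold change of -1.16 for the members and 0.00 for all genes. The lower members included 8 of 10 fibrillar genes and 6 of 6 collagen VI genes. Of the 15 basement membrane genes, 3 were lower and 2 higher, with a median log2 fold change of 0.07. Of the other classes, 3 of 7 fibril-associated genes were lower and 2 higher. Both comparisons use the EpiLC samples and so are not independent of each other.

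Within PGCLCs the calls were fewer, and all of them were rises. From day 2 to day 4, 4 members rose (Col1a1, Col6a4, Col13a1 and Col22a1) against 2.56% of all genes, and 0 fell against 0.376%. From day 4 to day 6, 6 rose (Col4a1, Col4a2, Col6a2, Col17a1, Col22a1 and Col27a1) against 2.29%, and 0 fell against 0.785%. Over the 4 days from day 2 to day 6, 19 rose against 10.9%, and 0 fell against 2.75%, with a median of 1.03 for the members and 0.00 for all genes. Without the fold cutoff, 1 member, Col18a1, was lower at an adjusted p below 0.05 in each of these 3 comparisons, at -0.38 log2 units (SE 0.07, adjusted p = 0.00291), -0.60 log2 units (SE 0.07, adjusted p = 6.39e-05) and -0.97 log2 units (SE 0.07, adjusted p = 3.55e-08) in edgeR. At an unadjusted p under 0.05, edgeR placed 3, 2 and 2 members on the lower side in these comparisons, and DESeq2 called 1 (Col6a3), 0 and 0 lower. The count of lower members from day 2 to day 6 was 2 (Col18a1 and Col26a1) without day 2 replicate 2 or without day 6 replicate 1, and from day 2 to day 4 it was 1 (Col6a3) without day 2 replicate 2. The day 4 rise of Col1a1 and of Col13a1 was lost without day 2 replicate 1, day 2 replicate 3, day 4 replicate 2 or day 4 replicate 3, and that of Col1a1 also without day 2 replicate 2. Without day 2 replicate 1 or without day 4 replicate 3 the number of members that rose to day 4 was 2. From day 4 to day 6, the calls of Col6a2 and Col17a1 were lost without day 4 replicate 2, day 4 replicate 3 or day 6 replicate 1. That of Col6a2 was also lost without day 6 replicate 3 and with only the 2 groups compared fitted. Days 2 and 4 were the one pair of groups in which all samples with the same replicate number deviated together, at a correlation over 0.1. Replicates 2 and 3 also did so between days 4 and 6, at 0.358 and 0.350. Between days 2 and 6 their values were 0.320 and 0.177, so the PGCLC days may not be independent of each other. Blocked by replicate number, the day 4 log2 fold change of Col1a1 was 1.26 (adjusted p = 0.0573) and no longer called.

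Day 6 PGCLCs were last set against the naive ESCs at the start of the series. There, 20 members were higher and 4 lower, against 15.8% and 10.3% of all genes, with a median of 1.16 for the members and 0.00 for all genes. Basement membrane genes were higher in 6 of 15 cases and lower in 2, fibrillar genes higher in 1 of 10 and lower in 2. The 4 lower members were Lama1, Lamb2, Col1a1 and Col5a1, of which Col1a1 and Col5a1 were lost without day 6 replicate 3. The call of Col1a1 was also lost without ESC replicate 3. That of Col5a1 was also lost without ESC replicate 2, without day 6 replicate 1 and with only the 2 groups compared fitted. Col5a1 stood at -1.01 log2 units (adjusted p = 7.53e-05), at the edge of the cutoff.

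**Figure D2:**
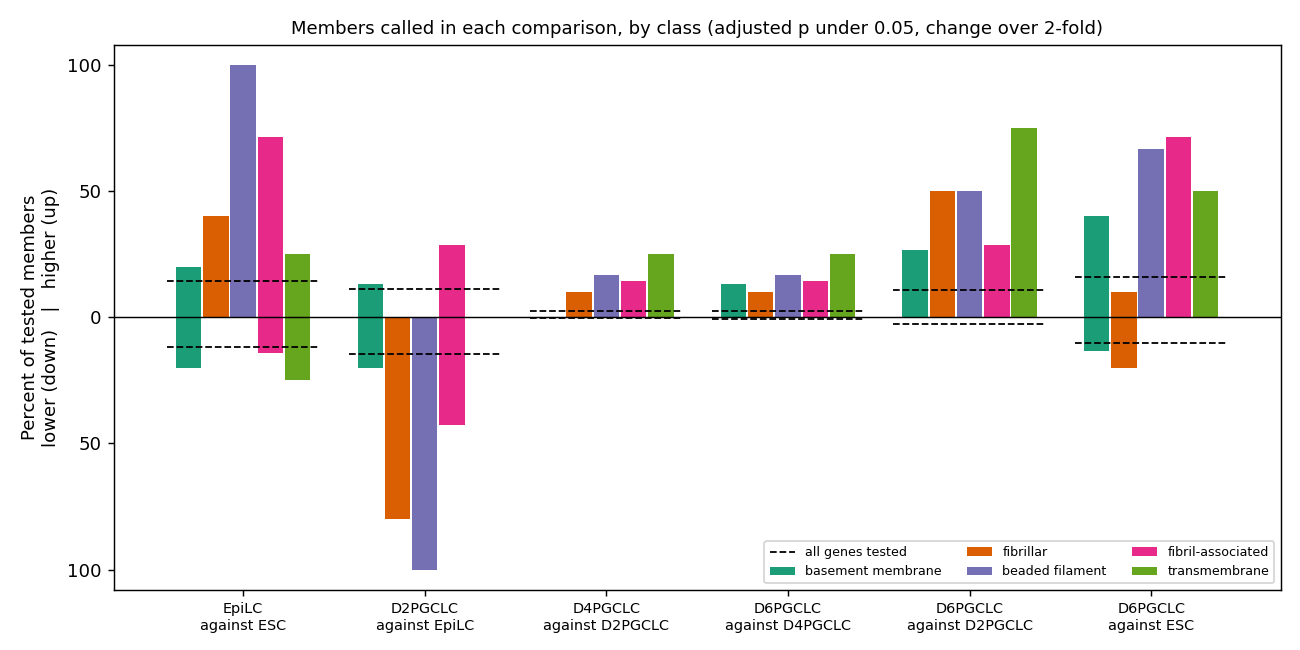
Percent of tested members called higher (bars upward) or lower (bars downward) in each of the 6 comparisons, by class, with dashed lines at the percent of all 18090 genes. All 6 collagen VI genes are called higher in EpiLCs and lower on day 2, and no member is called lower among the PGCLC days.

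Col18a1 encodes collagen XVIII, a heparan sulfate-bearing basement membrane collagen whose end fragment is endostatin, and it lies at chr10:77052178-77166548 on the minus strand (mm10). It measured 118, 119.6 and 135 CPM in the ESC samples and 873, 865 and 870.4 CPM in the EpiLC samples. Col18a1 levels on day 2 were 953, 867 and 924 CPM, followed by 746, 691 and 678 on day 4 and 489.9, 444 and 464 on day 6. Every EpiLC and PGCLC sample lay above every ESC sample, and the day 6 samples lay below all EpiLC, day 2 and day 4 samples. The log2 fold change from ESC to EpiLC was 2.81 (SE 0.08, adjusted p = 3.44e-15). On day 2 it stood at 0.07 log2 units (adjusted p = 0.427) against EpiLCs and at day 6 at -0.97 log2 units (adjusted p = 3.55e-08) against day 2, the latter just inside the fold cutoff and so not counted as called. Col18a1 alone took 13.1% of the summed CPM of all members in ESCs, 50.8% in EpiLCs, 61.7% on day 2, 54.7% on day 4 and 37.9% on day 6. With it, the members summed to 948 ± 41.5 CPM in ESCs and 1713 ± 34.3 in EpiLCs (SD, n = 3), and without it to 824 ± 32.0 and 843 ± 32.6. The annotated Col18a1 gene overlaps Slc19a1 on the other strand, and the strand setting of the counting is not given in the sources used here.

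The laminin beta chains changed places. Laminin beta 1 (Lamb1, chr12:31265234-31329644), the widespread beta chain of embryonic basement membranes, measured 28.2, 26.3 and 30.2 CPM in the ESC samples and 163, 145 and 136 CPM in the EpiLC samples. Lamb1 levels on day 2 were 81.4, 90.3 and 69.9 CPM, followed by 69.2, 67.4 and 53.6 on day 4 and 91.6, 87.0 and 75.0 on day 6. Laminin beta 2 (Lamb2, chr9:108479736-108490530), the chain of the neuromuscular junction and the kidney filter, measured 47.8, 49.8 and 53.2 CPM in the ESC samples and 14.7, 13.7 and 14.1 CPM in the EpiLC samples. Lamb2 levels on day 2 were 19.3, 18.2 and 13.8 CPM, followed by 21.8, 17.9 and 18.0 on day 4 and 22.3, 18.5 and 15.1 on day 6. In both genes the ESC samples were apart from all others, at the low end for Lamb1 and at the high end for Lamb2. From ESC to EpiLC the log2 fold change was 2.39 (SE 0.12, adjusted p = 8.15e-12) for Lamb1 and -1.83 (SE 0.15, adjusted p = 4.61e-09) for Lamb2. At day 6 both were still called against ESC, at 1.58 log2 units (adjusted p = 2.26e-09) and -1.43 log2 units (adjusted p = 1.03e-07). Per kb of exon, the level of Lamb1 was 0.345 ± 0.0199 of that of Lamb2 in ESCs and 6.41 ± 0.432 times it in EpiLCs, 2.91 ± 0.285 on day 2, 2.03 ± 0.254 on day 4 and 2.82 ± 0.267 on day 6 (SD, n = 3). Dividing by the longest transcript in place of merged exons gave 0.547, 10.2, 4.62, 3.22 and 4.47. A change of length scales all groups alike, so it could not alter their order.

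Among the alpha chains, laminin alpha 5 (Lama5, chr2:180176373-180225859), found with alpha 1 in the basement membrane under the early epiblast, held the largest share per kb in every group, from 60.9% on day 2 to 77.6% in EpiLCs. Lama5 measured 171, 155 and 189 CPM in the ESC samples and 275, 249 and 237 CPM in the EpiLC samples. Lama5 levels on day 2 were 61.7, 57.3 and 46.0 CPM, followed by 58.9, 69.0 and 43.6 on day 4 and 95.7, 99.7 and 78.8 on day 6. The PGCLC samples lay below all ESC and EpiLC samples, and from EpiLC to day 2 Lama5 fell by 2.20 on the log2 scale (SE 0.15, adjusted p = 4.42e-10). Laminin alpha 1 (Lama1), the chain of the first embryonic laminin, measured 24.3, 27.1 and 29.2 CPM in the ESC samples and 9.91, 7.14 and 6.20 CPM in the EpiLC samples. Lama1 levels on day 2 were 3.89, 3.76 and 4.35 CPM, followed by 4.67, 5.69 and 3.24 on day 4 and 8.88, 5.88 and 9.41 on day 6. All EpiLC and PGCLC samples were below all ESC samples for Lama1, with a log2 fold change of -1.80 (SE 0.21, adjusted p = 9.89e-07) from ESC to EpiLC and -1.74 (adjusted p = 1.34e-06) from ESC to day 6. The later rise of Lama1, 1.00 log2 units (adjusted p = 0.00148) from day 2 to day 6, sat at the cutoff and was lost with the replicate block, with no filter on low counts, without day 2 replicate 1 or 2 and without day 6 replicate 1 or 3.

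Laminin alpha 3 (Lama3) is a chain of the laminin of epithelial anchoring and measured 46.9, 50.6 and 53.9 CPM in the ESC samples and 54.7, 63.0 and 60.5 CPM in the EpiLC samples. Lama3 levels on day 2 were 28.8, 19.9 and 31.1 CPM, followed by 27.3, 24.8 and 22.5 on day 4 and 28.9, 27.8 and 27.5 on day 6. EpiLC and ESC samples were all above the PGCLC samples, and Lama3 changed by -1.16 log2 units (adjusted p = 4.73e-07) from EpiLC to day 2, a call that was lost without day 2 replicate 2. Its partner beta 3 (Lamb3) had no call in any comparison. Laminin alpha 4 (Lama4), a chain of vessels and muscle, stayed at or below 3.34 CPM in all samples, and it was higher on day 2 than in EpiLCs by 1.71 log2 units (adjusted p = 0.00135) and higher on day 6 (1.42, 2.73 and 3.34 CPM) than in ESCs by 2.14 log2 units (adjusted p = 0.000217).

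Lamc1 (chr1:153218922-153332786), the gamma chain of nearly all laminins, measured 379.7, 411 and 407 CPM in the ESC samples and 207, 212 and 204 CPM in the EpiLC samples. Lamc1 levels on day 2 were 288, 241 and 272 CPM, followed by 279, 299 and 229 on day 4 and 309.9, 301 and 260.2 on day 6. ESC samples were highest and EpiLC samples lowest, with no overlap with the other groups, but the difference of -0.94 log2 units (adjusted p = 1.63e-07) stayed inside the fold cutoff, and Lamc1 was called in none of the 6 comparisons.

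Collagen IV, whose alpha 1 and alpha 2 chains combine 2 to 1 in the trimer of nearly all basement membranes, was highest on day 6. Col4a1 measured 19.4, 15.4 and 15.5 CPM in the ESC samples and 15.9, 14.4 and 15.4 CPM in the EpiLC samples. Col4a1 levels on day 2 were 6.59, 6.34 and 6.42 CPM, followed by 12.5, 14.9 and 8.82 on day 4 and 27.7, 34.3 and 26.6 on day 6. It was lowest on day 2, and all day 6 samples lay above all others. Col4a2 measured 3.58, 3.20 and 4.42 CPM in the ESC samples and 2.79, 2.99 and 2.72 CPM in the EpiLC samples. Col4a2 levels on day 2 were 3.40, 3.66 and 2.13 CPM, followed by 5.97, 5.96 and 5.24 on day 4 and 17.3, 18.6 and 16.0 on day 6, with the day 4 samples above all earlier ones and the day 6 samples above those. Col4a1 changed by -1.24 log2 units (adjusted p = 4.89e-06) from EpiLC to day 2 and rose by 2.19 log2 units (SE 0.17, adjusted p = 3.55e-08) from day 2 to day 6, and Col4a2 rose by 2.50 log2 units (SE 0.19, adjusted p = 4.22e-08) over the same days. The difference for Col4a2 from EpiLC to day 2 was 0.11 log2 units (adjusted p = 0.687), which was no call.

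The level of Col4a1 per kb was 4.07 ± 0.863 times that of Col4a2 in ESCs, 4.78 ± 0.435 in EpiLCs, 1.98 ± 0.610 on day 2, 1.85 ± 0.358 on day 4 and 1.51 ± 0.110 on day 6 (SD, n = 3). The 6 ESC and EpiLC samples ranged from 3.12 to 5.04 and the 9 PGCLC samples from 1.42 to 2.67, without overlap. Both genes start from a shared region in opposite directions, at chr8:11198423-11312826 and chr8:11312805-11449287, and their annotated ends overlap, so reads there could be given to either gene depending on the strand setting. Col4a5, an X-linked chain, had 1 count in the ESC samples together, 43 in EpiLCs and 67 on day 6. Scaled to library size, its level in EpiLCs was 41.1 times that in ESCs (95% exact interval from counting error 6.99 to 1660) and on day 6 it was 45.2 times (7.83 to 1811), although day 6 replicate 1 had 0 counts. Both differences were called, and both calls were lost when only the 2 groups compared were fitted.

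The summed level of 12 markers of endoderm, which secretes much of the basement membrane of the early embryo, was also highest on day 6. It ranged from 8.28 to 9.38 CPM in ESCs, 14.5 to 17.1 in EpiLCs, 9.66 to 11.7 on day 2, 11.9 to 14.9 on day 4 and 22.8 to 33.2 on day 6. Gata6 and Dab2 made up most of the day 6 sum, at means of 9.25 and 11.0 CPM, and Dab2 averaged 9.30 CPM in EpiLCs. Only 5 of the 12 (Gata6, Sox7, Sox17, Dab2 and Pdgfra) had their highest mean on day 6. Gata4 was highest in ESCs (4.35 CPM against 1.94 on day 6), Foxa2 and Cubn in EpiLCs, Amn on day 2, and Srgn and Afp on day 4. Foxa2, Afp and Ttr were at 3 counts or fewer in every day 6 sample.

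The 5 endothelial markers summed to 2.12 to 4.19 CPM in ESCs and 8.95 to 15.6 in all other samples. Tek made up most of that sum, at a mean of 1.57 CPM in ESCs and 8.36 to 11.8 in the other groups, whereas Kdr was highest in ESCs at 1.65 CPM and Emcn had 0 counts throughout. The 5 mesoderm markers summed to 15.6 to 18.0 CPM in ESCs, 1.99 to 2.39 in EpiLCs, 1.56 to 4.67 on days 2 and 4 and 11.0 to 16.4 on day 6. The ESC sum was mostly T, at 14.8 CPM, and the day 6 sum mostly Hand1, at 13.1 CPM, with T, Mixl1, Mesp1 and Tbx6 at 0.0241 to 0.317 CPM there. All PGCLC samples had been sorted as Stella-eGFP+ cells, and the part of these marker genes' source cells in the collagen IV levels was not tested.

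**Figure D3:**
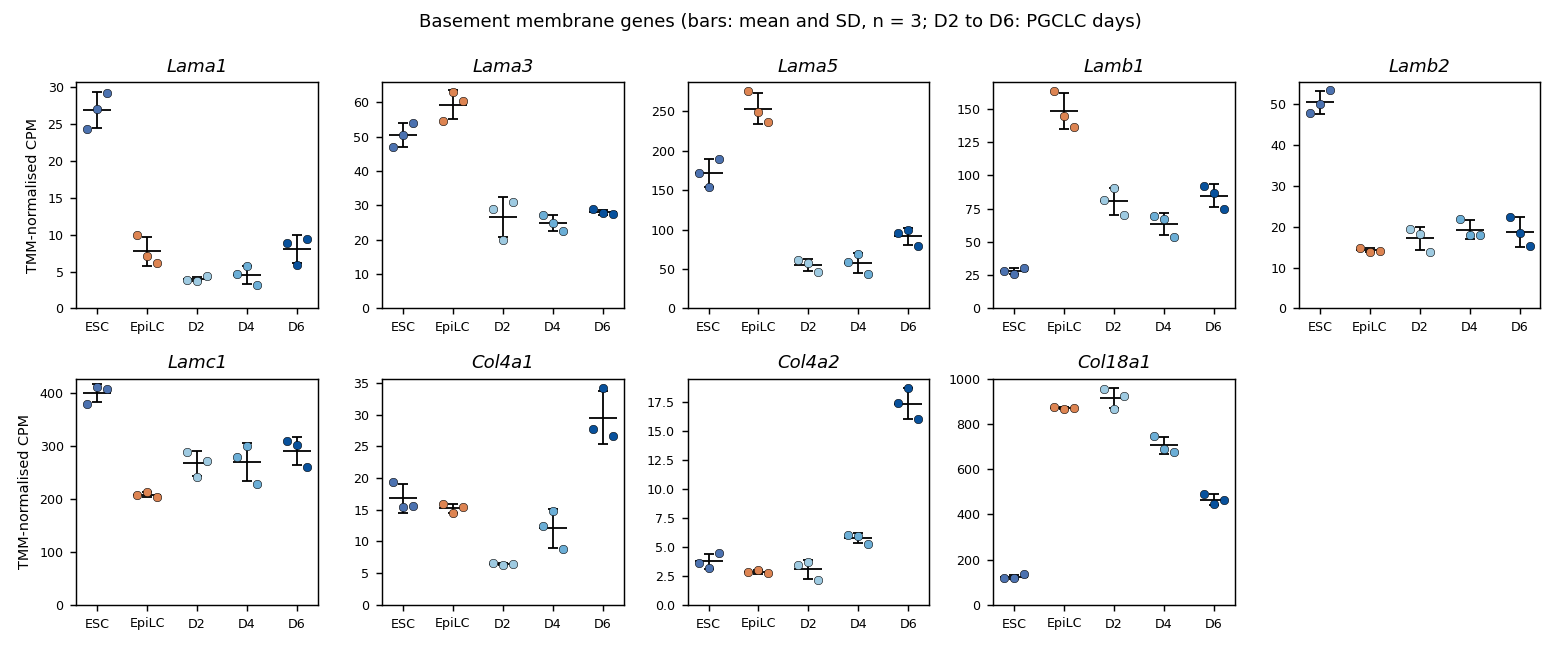
CPM of 9 basement membrane genes with a group mean of at least 5 CPM, by group, as 3 samples (points) with mean and SD. Lamb1 and Lamb2 take opposite ends in ESCs and EpiLCs, Col18a1 holds its highest levels in EpiLCs and on day 2, and Col4a1 and Col4a2 are highest on day 6.

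**Figure D4:**
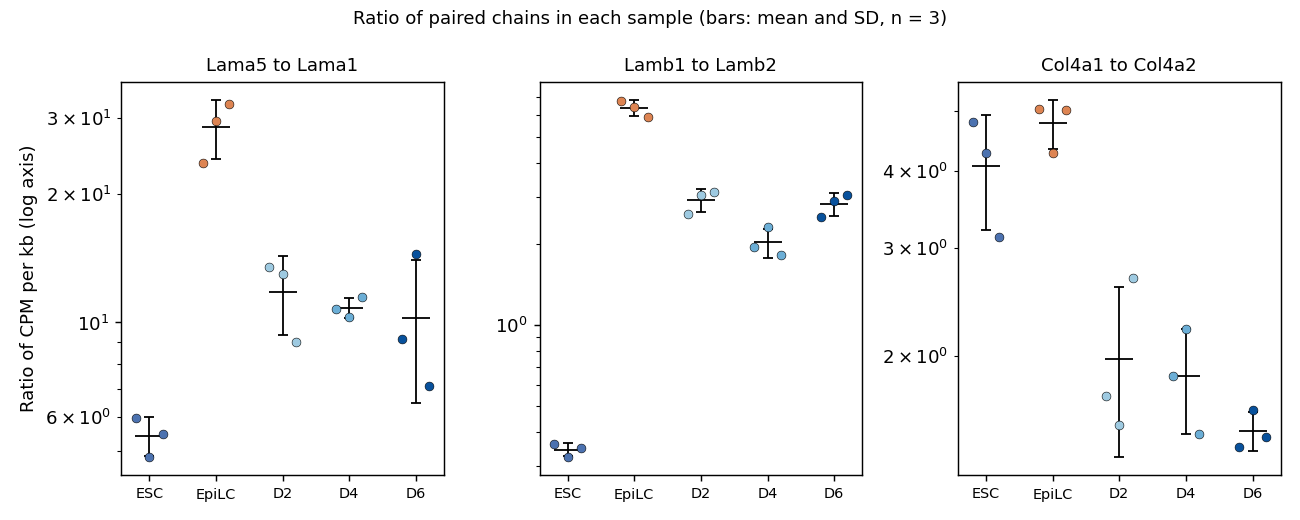
Ratios of CPM per kb of exon in each sample on log axes, with mean and SD, for Lama5 to Lama1, Lamb1 to Lamb2 and Col4a1 to Col4a2. Lama5 to Lama1 goes from a mean of 5.44 in ESCs to 28.6 in EpiLCs and 10.2 on day 6, Lamb1 to Lamb2 from 0.345 to 6.41 and 2.82, and Col4a1 to Col4a2 from 4.07 to 4.78 and 1.51.

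The fibrillar collagens were led by collagen V, which seeds the assembly of thicker fibrils, and by collagen II of cartilage. Col5a1 measured 22.4, 22.9 and 21.2 CPM in the ESC samples and 12.9, 11.8 and 11.6 CPM in the EpiLC samples. Col5a1 levels on day 2 were 4.23, 5.12 and 3.48 CPM, followed by 6.25, 6.72 and 4.27 on day 4 and 9.09, 12.9 and 10.9 on day 6. Its samples did not overlap between ESCs, EpiLCs and day 2, and it fell by 1.50 on the log2 scale from EpiLC to day 2 (SE 0.18, adjusted p = 1.55e-06) after an ESC to EpiLC difference of -0.87 that was inside the fold cutoff. From day 2 to day 6 Col5a1 rose by 1.37 log2 units (adjusted p = 1.53e-05).

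Col2a1 and Col5a2 were highest in EpiLCs. Col2a1 measured 2.23, 2.06 and 1.61 CPM in the ESC samples and 13.3, 12.8 and 15.1 CPM in the EpiLC samples. Col2a1 levels on day 2 were 2.67, 2.29 and 1.71 CPM, followed by 2.15, 3.49 and 2.49 on day 4 and 7.57, 3.72 and 2.55 on day 6, with the EpiLC samples above all others. It rose by 2.81 log2 units (SE 0.32, adjusted p = 7.02e-07) into EpiLCs and changed by -2.63 log2 units (adjusted p = 1.28e-06) on day 2. The rise of Col2a1 on day 6, 1.05 log2 units (adjusted p = 0.0128) against day 2 and 1.23 log2 units (adjusted p = 0.00323) against ESC, rested on day 6 replicate 1, without which the values were 0.51 and 0.70 and not called. Col5a2, the second chain of collagen V, measured 2.37, 2.45 and 2.98 CPM in the ESC samples and 8.57, 5.69 and 8.26 CPM in the EpiLC samples. Col5a2 levels on day 2 were 1.50, 1.58 and 2.28 CPM, followed by 3.40, 2.89 and 3.89 on day 4 and 5.41, 3.70 and 5.61 on day 6. It followed Col2a1 into EpiLCs at 1.52 log2 units (adjusted p = 3.42e-05) and on day 2 at -2.06 log2 units (adjusted p = 1.23e-06), and rose from day 2 to day 6 by 1.45 log2 units (adjusted p = 0.000161). Col5a3, the third chain, measured 6.28, 4.60 and 6.97 CPM in the ESC samples and 4.32, 6.05 and 5.72 CPM in the EpiLC samples. Col5a3 levels on day 2 were 2.24, 2.58 and 1.20 CPM, followed by 3.49, 4.79 and 1.23 on day 4 and 2.26, 4.43 and 2.41 on day 6, with ESC and EpiLC samples overlapping and day 2 samples below both, at -1.43 log2 units (adjusted p = 0.00503) against EpiLCs.

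Col3a1, a collagen of loose connective tissue, had 0 counts in ESCs and 12 to 35 in the EpiLC samples, so it was at least 6.90-fold higher in EpiLCs than in ESCs. On day 2 it had 1 count in all, and its EpiLC level was 75.0 times that (95% exact interval from counting error 13.0 to 3008). Col1a1 averaged 3.60 ± 0.368 CPM in EpiLCs and 0.338 ± 0.0448 on day 2 (SD, n = 3), a fall of 3.39 on the log2 scale in the edgeR fit (adjusted p = 6.59e-07). Col27a1, a collagen of developing cartilage, was lower on day 2 than in EpiLCs at -1.73 log2 units (adjusted p = 4.64e-05) and rose from day 4 to day 6 by 1.88 log2 units (adjusted p = 0.000225). Col11a1 and Col11a2, of cartilage fibrils, had no call in any comparison. Genes are named with every value where their highest group mean was at least 5 CPM. The highest means just inside this limit were 5.02 for Col6a4, 5.89 for Col13a1 and 5.95 for Col5a3, and those just outside were 4.24 for Col26a1, 4.13 for Col27a1 and 3.95 for Col11a1.

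The summed levels of fibroblast markers and of the fibrillar genes were both highest in EpiLCs and lowest on day 2, although only 5 of the 10 markers and 5 of the 10 tested fibrillar genes had their highest mean in EpiLCs. The 10 markers summed to 30.2 to 33.4 CPM in ESCs, 64.4 to 79.0 in EpiLCs, 14.4 to 17.6 on day 2, 20.7 to 26.4 on day 4 and 32.0 to 33.1 on day 6. The 11 fibrillar members summed to 41.2 ± 1.15, 50.9 ± 1.91, 15.5 ± 1.32, 20.7 ± 3.41 and 34.4 ± 1.76 (SD, n = 3). Fbln1 made up the larger part of the marker sum, at 46.4 CPM in EpiLCs, and Dcn was at 5.83 CPM there. Twist1 and Pdgfrb were highest on day 6, at 3.06 and 2.40 CPM, and Acta2 on day 4, at 1.21 CPM. Prrx1 and Lum were at 3 counts or fewer in every sample, and Twist2, Dcn and Postn in every ESC and PGCLC sample. The study kept its ESC stock on mouse embryonic fibroblast feeders before the naive culture, and the part of such cells in these levels was not tested.

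Collagen VI, which forms beaded microfilaments near basement membranes, had 6 of 6 genes higher in EpiLCs at log2 fold changes from 1.84 upward and 6 of 6 lower on day 2 at -4.21 to -1.17. Col6a5 measured 3.65, 3.33 and 3.12 CPM in the ESC samples and 19.2, 20.7 and 18.6 CPM in the EpiLC samples. Col6a5 levels on day 2 were 4.66, 6.16 and 5.61 CPM, followed by 4.64, 11.6 and 3.15 on day 4 and 4.31, 15.5 and 3.34 on day 6. The EpiLC samples were above all others, and replicate 2 of days 4 and 6 stood apart from its group. The day 6 call of Col6a5 against ESC, 1.21 (adjusted p = 0.0365), was lost without that replicate, where the log2 fold change was 0.18. It was also lost in DESeq2, with the replicate block and without any 1 of the 3 ESC samples, at 0.96 to 1.27 log2 units. Col6a4 measured 1.20, 0.614 and 0.536 CPM in the ESC samples and 4.63, 5.43 and 4.99 CPM in the EpiLC samples. Col6a4 levels on day 2 were 0.613, 0.538 and 0.870 CPM, followed by 1.67, 1.93 and 1.52 on day 4 and 2.52, 3.21 and 3.23 on day 6. It rose by 2.67 (adjusted p = 8.58e-07) into EpiLCs, fell by 2.88 on the log2 scale on day 2, and rose again by 2.14 (adjusted p = 3.59e-05) from day 2 to day 6, with the day 4 samples between. Col6a6 had 2 counts in the ESC samples together and 239 in EpiLCs, a ratio of 114 (95% exact interval from counting error 31.3 to 948). With 74, 233 and 84 counts on day 6, its ratio to ESCs was 132 (36.2 to 1092), and 86.2 without replicate 2. Col6a1 and Col6a2, the obligate core chains, were weak, at 1.65 ± 0.481 and 2.11 ± 0.699 CPM in EpiLCs (SD, n = 3), and had 0 and 57.0 counts in day 6 replicate 1.

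Collagen IX alpha 2 (Col9a2, chr4:121039385-121055322), a chain of the collagen that decorates cartilage fibrils, was highest in PGCLCs. Col9a2 measured 3.39, 3.64 and 3.12 CPM in the ESC samples and 19.5, 18.8 and 19.3 CPM in the EpiLC samples. Col9a2 levels on day 2 were 49.6, 82.2 and 39.4 CPM, followed by 54.1, 72.8 and 53.4 on day 4 and 91.1, 95.7 and 73.0 on day 6. The groups did not overlap from ESCs to EpiLCs to PGCLCs, and replicate 2 was the highest sample on each PGCLC day. It rose by 2.51 log2 units (SE 0.23, adjusted p = 3.62e-08) into EpiLCs and by 1.57 log2 units (adjusted p = 1.98e-06) on day 2, and stood 4.68 log2 units (adjusted p = 1.11e-11) above ESC on day 6. Among the members outside the basement membrane class, its level per kb was the highest in every EpiLC and PGCLC sample. Its partner Col9a1 had 2 counts in the ESC samples together and 297 in EpiLCs, a ratio of 142 (95% exact interval from counting error 38.9 to 1177). With 55, 100 and 113 counts on day 6, its ratio to ESCs was 90.3 (24.8 to 749.9).

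Col22a1 and Col13a1 were also highest on day 6. Col22a1, a collagen of tissue junctions, measured 1.39, 1.14 and 1.74 CPM in the ESC samples and 2.83, 2.37 and 3.30 CPM in the EpiLC samples. Col22a1 levels on day 2 were 1.10, 0.538 and 0.750 CPM, followed by 1.58, 1.75 and 3.32 on day 4 and 7.75, 5.06 and 6.75 on day 6, with all day 6 samples above all others. It was lower on day 2 at -1.81 log2 units (adjusted p = 0.000177) and higher by 1.46 log2 units (adjusted p = 0.00866) on day 4 against day 2 and by 1.55 log2 units (adjusted p = 0.003) on day 6 against day 4, with the call on day 4 lost without day 4 replicate 3. Col13a1, a transmembrane collagen of cell adhesion sites, measured 1.86, 2.10 and 1.64 CPM in the ESC samples and 1.84, 2.20 and 1.72 CPM in the EpiLC samples. Col13a1 levels on day 2 were 0.858, 1.90 and 0.240 CPM, followed by 2.00, 3.13 and 2.84 on day 4 and 5.12, 7.22 and 5.33 on day 6, and its day 6 samples were above all others. It rose by 2.58 log2 units (adjusted p = 0.00011) from day 2 to day 6. All 4 transmembrane collagens and all 3 tested collagen IV genes had their highest group mean on day 6.

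**Figure D5:**
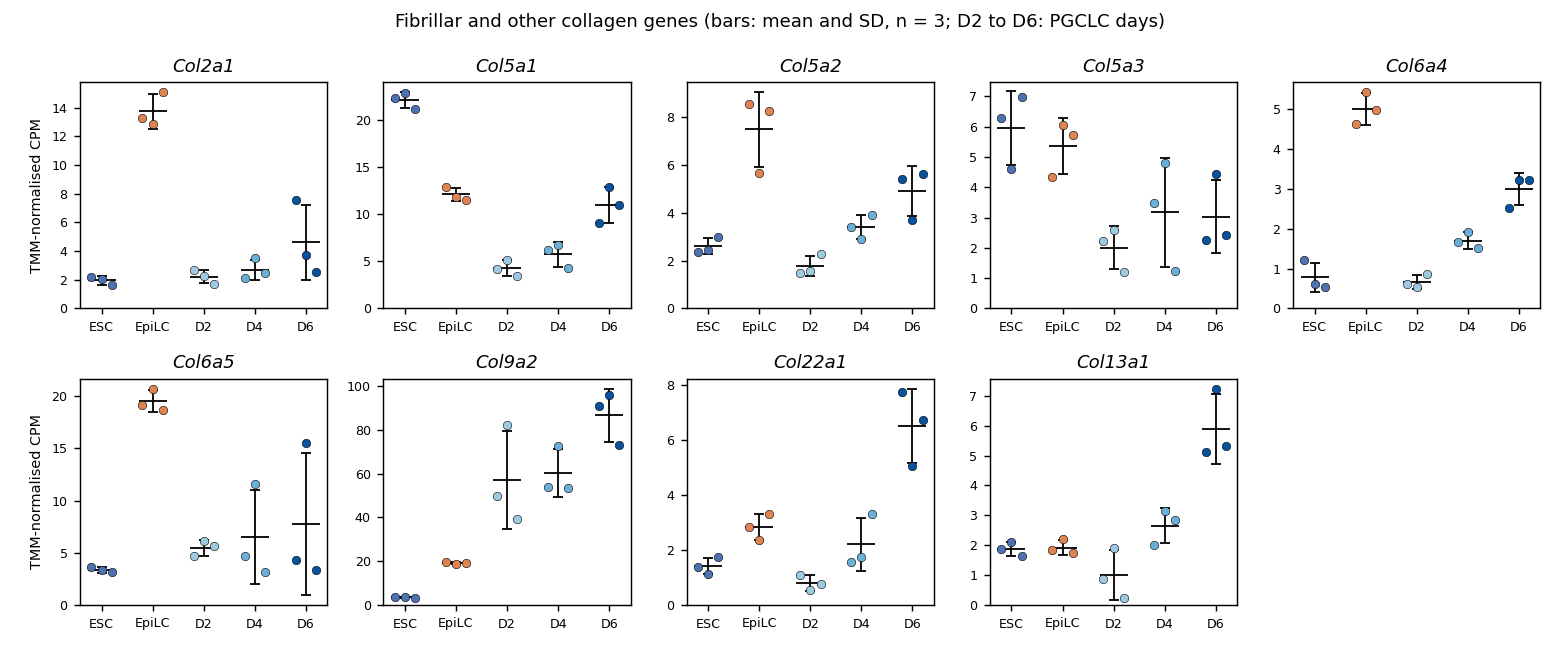
CPM of the 9 fibrillar, collagen VI, fibril-associated and transmembrane genes with a group mean of at least 5 CPM, by group, as 3 samples (points) with mean and SD. Col2a1, Col5a2, Col6a4 and Col6a5 peak in EpiLCs, Col5a1 is highest in ESCs, and Col9a2, Col22a1 and Col13a1 are highest on day 6.

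Over the 47 tested members, 5 had their highest group mean in ESCs, 20 in EpiLCs, 2 on day 2, 1 on day 4 and 19 on day 6. The share of all genes with each peak was not computed. These and the other counts of highest means among members therefore describe the members only. Groups were ranked by mean, also where their samples overlapped. Col8a1, a network-forming collagen of vessel walls and the eye, had 0 counts in all ESC and EpiLC samples and 72, 51 and 64 on day 6. With 24, 4 and 23 counts on day 2, Col8a1 was at least 4.85-fold higher there than in EpiLCs, and at least 3.86-fold without day 2 replicate 1. That call was lost when only the 2 groups compared were fitted. On day 6 Col8a1 was at least 14.1-fold higher than in ESCs. Col25a1, a transmembrane collagen of neurons, had 0 counts in ESCs and 66, 14 and 26 on day 6. It was at least 8.14-fold higher on day 6, and at least 4.59-fold without day 6 replicate 1. Col28a1 had 3 counts in the ESC samples together and 88 in EpiLCs, a ratio of 28.0 (95% exact interval from counting error 9.28 to 138). With 18, 25 and 20 counts on day 6, its ratio to ESCs was 14.2 (4.63 to 70.5). Members with no call in any comparison were Col11a1, Col11a2, Col26a1, Lama2, Lamb3 and Lamc1.

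The other components of basement membranes were taken as a list of 11 tested genes. Between ESCs and EpiLCs, 1 was higher and 2 lower, on day 2 against EpiLCs 2 were higher and 1 lower, and on day 6 against ESC 2 were higher and 3 lower, with medians of -0.49, 0.45 and -0.33. Over all genes tested, 14.4% were higher and 11.9% lower in EpiLCs, 11.0% and 14.4% on day 2, and 15.8% and 10.3% on day 6 against ESC. Nidogen 1 (Nid1), which links laminin to collagen IV, fell from a mean of 241 CPM in ESCs to 24.1 in EpiLCs, a log2 fold change of -3.32 (SE 0.11, adjusted p = 2.55e-14). Perlecan (Hspg2), a heparan sulfate proteoglycan, was higher in EpiLCs by 1.22 log2 units and on day 6 by 1.78 log2 units against ESC. Agrin (Agrn), another such proteoglycan, was lower in EpiLCs at -1.06 log2 units and higher on day 2 by 1.33 log2 units. The integrin ligand nephronectin (Npnt) was higher on day 2 by 2.05 log2 units and on day 6 by 3.15 log2 units against ESC, and Bcam, a receptor for laminin alpha 5, was lower at -1.83 log2 units and -1.19 log2 units in the same comparisons. Sparc, a collagen-binding protein, was lower on day 6 than in ESCs at -1.18 log2 units, and Smoc2, at a mean of 0.300 CPM in ESCs, had no count on day 6.

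Enzymes that fold and modify collagen chains had 4 of 17 genes higher and 4 lower in EpiLCs, against 14.4% and 11.9% of all genes. On day 2, 1 was higher and 4 lower (11.0% and 14.4% of all genes), and on day 6 against ESC 4 were higher and 1 lower (15.8% and 10.3%). The prolyl isomerase Fkbp10 was higher in EpiLCs by 2.80 log2 units and lower on day 2 at -2.23 log2 units. P3h2, a prolyl 3-hydroxylase, went the same way by 2.68 log2 units and -2.01 log2 units, and P4ha2, a subunit of prolyl 4-hydroxylase, was lower on day 2 at -2.06 log2 units while its sister subunit P4ha1 was higher by 1.12 log2 units. Serpinh1, the collagen chaperone HSP47, was lower in EpiLCs at -1.07 log2 units, as were the galactosyltransferase Colgalt1 at -1.34 log2 units and P3h3 at -1.16 log2 units. P3h4 was higher in EpiLCs by 1.36 log2 units and on day 6 by 1.82 log2 units against ESC. In the latter comparison Colgalt2 and P3h2 were also higher, by 2.36 log2 units and 1.86 log2 units. P4hb, the partner subunit of P4ha1 and P4ha2, was lower there at -1.16 log2 units.

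Of 13 genes for cross-linking and processing, 7 were higher and 4 lower in EpiLCs, against 14.4% and 11.9% of all genes. On day 2, 1 was higher and 6 lower (11.0% and 14.4% of all genes), and on day 6 against ESC 7 were higher and 4 lower (15.8% and 10.3%). Peroxidasin (Pxdn), which cross-links the collagen IV network, was at 4.81 CPM in ESCs, 49.8 in EpiLCs, 8.17 on day 2 and 21.3 on day 6, with log2 fold changes of 3.38 (SE 0.17, adjusted p = 8.98e-12) into EpiLCs and -2.61 (SE 0.16, adjusted p = 1.78e-10) on day 2. The lysyl oxidase Lox had 0.712 CPM in EpiLCs and no count in ESCs or on day 6. Loxl4, of the same family, was lower in EpiLCs at -3.76 log2 units and higher on day 2 by 4.79 log2 units, Loxl2 was lower on day 2 at -3.51 log2 units and on day 6 at -1.58 log2 units against ESC, and Loxl1 was higher on day 6 by 3.05 log2 units. The procollagen proteinase genes Adamts14 and Adamts3 were higher on day 6 by 3.75 log2 units and 2.49 log2 units against ESC. Adamts3 was higher in EpiLCs by 3.39 log2 units and lower on day 2 at -3.19 log2 units. Pcolce and Pcolce2, enhancers of procollagen C-proteinase, were lower in EpiLCs at -2.88 log2 units and -1.64 log2 units and on day 6 at -4.03 log2 units and -3.08 log2 units against ESC.

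Among 9 matrix proteases and their inhibitors, 4 were higher and 1 lower in EpiLCs, against 14.4% and 11.9% of all genes. On day 2, 0 were higher and 4 lower (11.0% and 14.4% of all genes). On day 6, 6 were higher and 0 lower against day 2 (10.9% and 2.75%), and 5 higher and 2 lower against ESC (15.8% and 10.3%). The gelatinase Mmp2, which cuts collagen IV, was at 0.679 CPM in ESCs, 13.0 in EpiLCs and 0.390 on day 2, with log2 fold changes of 4.29 (SE 0.50, adjusted p = 7.03e-07) and -5.09 (SE 0.52, adjusted p = 1.65e-07). The inhibitor Timp3 was at 0.678, 14.2 and 1.63 CPM in the same groups, with log2 fold changes of 4.36 (SE 0.33, adjusted p = 2.53e-09) and -3.14 (SE 0.30, adjusted p = 6.4e-08). Timp4 was higher in EpiLCs by 3.75 log2 units and lower on day 2 at -4.29 log2 units, and Timp1 was lower in EpiLCs at -1.65 log2 units and on day 6 at -1.63 log2 units against ESC. On day 6, Mmp2, Mmp9 and Timp3 were higher than in ESCs by 2.27 log2 units, 2.27 log2 units and 2.28 log2 units, and the membrane protease Mmp14 was lower at -1.49 log2 units.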

How the data were processed

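RNA from 15 samples in 5 groups was sequenced from NEBNext Ultra II Directional libraries, and the authors deposited 1 table of raw counts per Ensembl gene. Per the submitters' processing notes, Trim Galore, FastQC, STAR and the mm10 genome were used; the counting tool, its strand setting and versions are not given in the sources used here. All 55536 gene IDs matched GENCODE M21. Members and pathway lists were chosen with earlier results of these data known. Counts were tested in edgeR 4.0.16 (R 4.3.3) by the quasi-likelihood test with TMM normalisation, filterByExpr (minimum count 10) and 1 coefficient per group over all 15 samples, and p-values were adjusted by Benjamini-Hochberg over 18090 genes. Genes with an adjusted p below 0.05 and a change beyond 1 on the log2 scale were called. A fold against a group with 0 counts in every sample is a lower bound, set against 3 counts in each of its samples, and against a group with 1 to 3 counts in all it is a ratio of TMM-scaled counts with an exact 95% interval. Basement membrane and fibrillar members with a group mean of at least 5 CPM, and members of other classes with such a mean and a call, were named with every value; of each pathway list, the 3 highest and 3 lowest calls were named. Floors and intervals cover counting error only. Same-numbered samples of 2 groups were compared by the correlation of their deviations from the group means, which was 0.255, 0.300 and 0.292 between days 2 and 4 and was not over 0.1 in every pair of any other comparison. Alternatives were DESeq2 1.42.0, its size factors, no filter, no fold cutoff, 2 groups alone, the replicate block, other floors, transcript length and leaving out each sample. The values of 1 member, kept in the counts of members, are not reported here. The scripts were tested on simulated data.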

Additional observations from a re-analysis of the deposited data

How the results depend on the processing

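The counts of members called higher or lower kept within 1.5 times of the values given under DESeq2's size factors and with no filter on low counts. Without a fold cutoff, 8 members were higher on day 2 than in EpiLCs, 7 were higher and 1 lower on day 4 than on day 2, 11 were higher and 1 lower on day 6 than on day 4, 1 was lower on day 6 than on day 2, and 8 were lower on day 6 than in ESCs. Fitting only the 2 groups compared left 2 members higher on day 4 than on day 2, and DESeq2 called 1 lower there. Without 1 sample at a time, the counts ran from 20 to 23 higher and 3 to 5 lower in EpiLCs, 5 to 6 and 21 to 23 on day 2, 2 to 4 and 0 to 1 from day 2 to day 4, 5 to 7 and 0 from day 4 to day 6, 15 to 18 and 0 to 2 from day 2 to day 6, and 20 to 22 and 2 to 5 on day 6 against ESC. The cause of these shifts was not tested.

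Blocked by replicate number, the fit gave 23 higher and 4 lower in EpiLCs, 5 and 24 on day 2, 4 and 0 to day 4, 7 and 0 from day 4 to day 6, 18 and 0 from day 2 to day 6, and 20 and 5 on day 6 against ESC. Over all 30 same-numbered pairs of groups the correlation of deviations averaged 0.0703. Between days 4 and 6 it was 0.0187, 0.358 and 0.350 for replicates 1, 2 and 3. Between days 2 and 6 it was 0.0601, 0.320 and 0.177 in the same order. The labels do not say whether a number marks a shared culture.

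Members below detection numbered 7, 4, 1 and 0 in ESCs and on days 2, 4 and 6 with a floor of 0 counts, and 0 over all 15 samples. With a floor of 10 they numbered 13 in EpiLCs, 13 on day 2, 11 on day 4 and 6 over all samples. Leaving out 1 sample gave 15 to 18 in ESCs, 7 to 9 in EpiLCs, 8 to 10 on day 2, 5 to 8 on day 4 and 5 to 6 on day 6.

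With the longest transcript as length, Lamb1 to Lamb2 was 0.547, 10.2, 4.62, 3.22 and 4.47 from ESC to day 6, and Col4a1 to Col4a2 was 5.26 in EpiLCs and 1.66 on day 6. Leaving out 1 sample, in the same order of groups, gave Col4a1 to Col4a2 of 3.70 to 4.54, 4.65 to 5.03, 1.63 to 2.20, 1.67 to 2.03 and 1.45 to 1.55. Lama5 to Lama1 was then 5.17 to 5.74, 26.6 to 31.0, 11.0 to 13.2, 10.5 to 11.1 and 8.14 to 11.8, and Lamb1 to Lamb2 0.336 to 0.355, 6.21 to 6.64, 2.82 to 3.08, 1.89 to 2.13 and 2.71 to 2.96.

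Of 1254 alternatives for 114 log2 fold changes of named members, 1164 kept the direction and side of the threshold, 34 moved past it, 27 fell short of it and 29 changed sign, all 29 for differences that were not called. Where leaving out 1 sample turned the sign, the log2 fold changes ran as follows. From EpiLC to day 2, the range was Col4a2 -0.0293 to 0.32. From day 4 to day 6, the ranges were Col5a3 -0.45 to 0.37, Col6a5 -0.76 to 1.00 and Lamb2 -0.19 to 0.0763. From day 2 to day 4, the ranges were Col6a5 -0.49 to 0.57, Col9a2 -0.13 to 0.43, Lama1 -0.0226 to 0.37, Lama3 -0.27 to 0.0255, Lama5 -0.10 to 0.22 and Lamc1 -0.0749 to 0.12. From day 2 to day 6, the ranges were Col6a5 -0.52 to 0.87, Lama3 -0.10 to 0.20, Lamb1 -0.026 to 0.15 and Lamb2 -0.018 to 0.25. From ESC to EpiLC, the range was Col13a1 -0.0541 to 0.13. The log2 fold change of Lamc1 from day 2 to day 4 was -0.0003 with DESeq2's size factors and -0.0078 with only the 2 groups.

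The 8 members with at most 16 counts in any sample were removed by the filter on low counts. With no filter, Col12a1, 1 of the 8, was called higher on day 6 against day 2 and against ESC. A level of 3 counts was 0.0702 to 0.133 CPM of a library's total.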
